A study of Mus musculus with 12 samples.

Results

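The H3K9me2 peaks of brown adipose tissue (BAT) were compared between mice fed a high-fat diet (HFD) and mice fed a standard chow diet (SCD). H3K9me2 is the dimethylated form of lysine 9 of histone H3. The members are all regions of the 2 peak lists, 43173 in HFD and 24887 in SCD, which makes 68060 of the 266606 peaks in the 8 lists of the series. A peak was called shared when it overlapped a peak of the other diet by at least 1 bp, and HFD only or SCD only when it did not. ChIP-seq, which sequences the DNA recovered with an antibody to a histone mark, was done in brown and in white fat under both diets, for this mark and for H3K9me3, the trimethylated form. Wild-type C57BL/6J mice entered at 6 weeks of age, were fed HFD or SCD for 12 weeks, and their tissue was fixed in 1% formaldehyde for 8 min.

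Each diet is represented by 1 library, and no source says whether it held 1 animal or several, so no difference between diets could be tested and none has a replicate check. The intervals given are 95% exact (Clopper-Pearson) intervals and cover counting error alone. The number of reads behind each list is unknown, and a list keeps only peaks with a score of at least 50, so a region without a peak may still carry the mark. The score is read as 10 times −log10 of the peak caller's p-value, in which 50 stands for a p of 1e-05, and it grows with sequencing depth. For this reason the main comparisons were repeated at equal numbers, with the 24887 highest-scoring HFD peaks (score 70.62 or more) against the 24887 SCD peaks. The methods pair the H3K9me2 label with an antibody described as one against trimethylated lysine 9, and the H3K9me3 label with one against the dimethylated form, so the marks are named here as the libraries were labelled. Peak lists hold no expression values, so the tissue label could not be checked against marker transcripts.

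H3K9me2 is written mainly by the methyltransferases Ehmt2 (G9a) and Ehmt1 (GLP), removed by demethylases such as Kdm3a and Kdm1a, and usually found over silent genes and broad gene-poor domains. In brown fat, Ehmt1 is known as a partner of Prdm16, a factor that keeps the brown adipocyte fate, and Ucp1 is the mitochondrial uncoupling protein through which the tissue makes heat. Most mammalian CpG dinucleotides have been lost to mutation, and the regions that kept them, CpG islands, lie at the start sites of many genes.

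The sequences under 7 promoter peaks are printed first because base composition separated the classes. Each line holds 160 bases of the mm9 assembly, read 5′ to 3′ on the strand of the gene, taken as near the middle of the peak as possible without touching an untranslated exon, with CpG dinucleotides in capitals. From HFD only peaks come windows at Plin4, which coats lipid droplets, and at Adrb1, the beta-1 adrenergic receptor. Another comes from Dgat1, which makes the last step of triglyceride synthesis. The Plin4 window (chr17:56245060-56245219, minus strand) lay inside the gene where the annotation has no exon. Its bases read without a stop codon in the first frame, so they may be coding sequence. The Adrb1 window (chr19:56797439-56797598, plus strand) lay in a coding exon. The Dgat1 window (chr15:76330168-76330327, minus strand) lay past the 3' end of Dgat1 in an intron of its neighbour Hsf1, on the other strand. The Dgat1 peak counts as a promoter peak through a start site inside the gene.
Plin4: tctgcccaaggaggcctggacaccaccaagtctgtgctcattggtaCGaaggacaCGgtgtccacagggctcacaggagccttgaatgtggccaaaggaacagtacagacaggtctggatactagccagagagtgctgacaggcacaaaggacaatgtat
Adrb1: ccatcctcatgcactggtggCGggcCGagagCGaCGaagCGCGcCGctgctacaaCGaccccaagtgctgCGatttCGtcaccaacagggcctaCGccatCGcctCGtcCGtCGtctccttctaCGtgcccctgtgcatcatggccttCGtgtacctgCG
Dgat1: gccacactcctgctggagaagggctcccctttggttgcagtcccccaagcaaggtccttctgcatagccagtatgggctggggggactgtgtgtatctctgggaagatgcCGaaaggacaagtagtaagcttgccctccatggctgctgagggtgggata
From SCD only peaks come windows at Pde3b (chr7:121559065-121559224, plus strand, coding exon), the phosphodiesterase through which insulin lowers cAMP, at Slc2a1 (chr4:118781578-118781737, plus strand, in an intron), the glucose transporter GLUT1, and at Acaca (chr11:83942879-83943038, plus strand, upstream of Acaca in an intron of Tada2a, on the other strand), the acetyl-CoA carboxylase of fatty acid synthesis.
Pde3b: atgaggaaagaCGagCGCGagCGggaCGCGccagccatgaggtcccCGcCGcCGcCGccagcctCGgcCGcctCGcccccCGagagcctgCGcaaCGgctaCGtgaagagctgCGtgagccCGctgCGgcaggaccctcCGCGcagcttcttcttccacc
Slc2a1: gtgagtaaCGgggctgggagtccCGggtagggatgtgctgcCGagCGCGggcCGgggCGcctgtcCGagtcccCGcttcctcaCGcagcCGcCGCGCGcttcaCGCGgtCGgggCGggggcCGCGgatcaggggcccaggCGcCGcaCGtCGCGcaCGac
Acaca: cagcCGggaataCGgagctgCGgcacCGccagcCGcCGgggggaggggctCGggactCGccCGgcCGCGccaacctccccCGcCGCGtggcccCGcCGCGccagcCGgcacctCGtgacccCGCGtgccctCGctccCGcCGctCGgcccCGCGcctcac
From a peak shared by both diets comes a window at Irs2 (chr8:11007244-11007403, minus strand, coding exon), an adaptor of the insulin receptor.
Irs2: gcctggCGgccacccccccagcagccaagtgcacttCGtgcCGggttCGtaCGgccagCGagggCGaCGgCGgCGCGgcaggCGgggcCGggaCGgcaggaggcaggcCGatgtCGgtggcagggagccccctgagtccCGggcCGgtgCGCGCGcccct

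The Plin4 window held 2 CpG at 53.8% GC, the Dgat1 window 1 CpG at 57.5% GC and the Adrb1 window 18 CpG at 63.8% GC. The SCD only windows held 22 CpG at Pde3b, 26 at Slc2a1 and 27 at Acaca, at 72.5%, 77.5% and 82.5% GC. The shared Irs2 window held 21 CpG at 78.8% GC. Adrb1 therefore stood nearer to the SCD only windows than the other HFD only examples did. These genes were chosen as examples after their values had been seen.

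Across all placed peaks the same contrast appeared. The CpG ratio, the number of CpG dinucleotides over the number expected from the C and G content, had a median of 0.265 in HFD only peaks, 0.489 in SCD only peaks and 0.537 in shared HFD peaks. Median GC content was 55.04% in HFD only peaks, 57.7% in SCD only peaks and 59.5% in shared HFD peaks. HFD only peaks were thus the class poorest in CpG, and SCD only peaks lay close to the shared ones. At equal numbers the median CpG ratio was 0.265 in HFD only peaks and 0.506 in SCD only peaks, so the gap was as wide between lists of the same length.

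The share of HFD peaks without an SCD partner was lower in GC-rich peaks. It was 82.0% (81.4 to 82.7) among HFD peaks of 50 to 55% GC, 66.5% at 55 to 60%, 25.7% at 60 to 65% and 9.21% (8.198 to 10.3) at 65% or more. SCD peaks followed another course, with 49.8% lacking an HFD partner at 50 to 55% GC, 31.6% at 55 to 60%, 26.05% at 60 to 65% and 41.7% (40.1 to 43.3) at 65% or more. Among the most GC-rich peaks, SCD peaks were thus the ones more often without a partner. GC content also affects amplification and sequencing of a library, and its part in these differences was not tested.

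**Figure D1:**
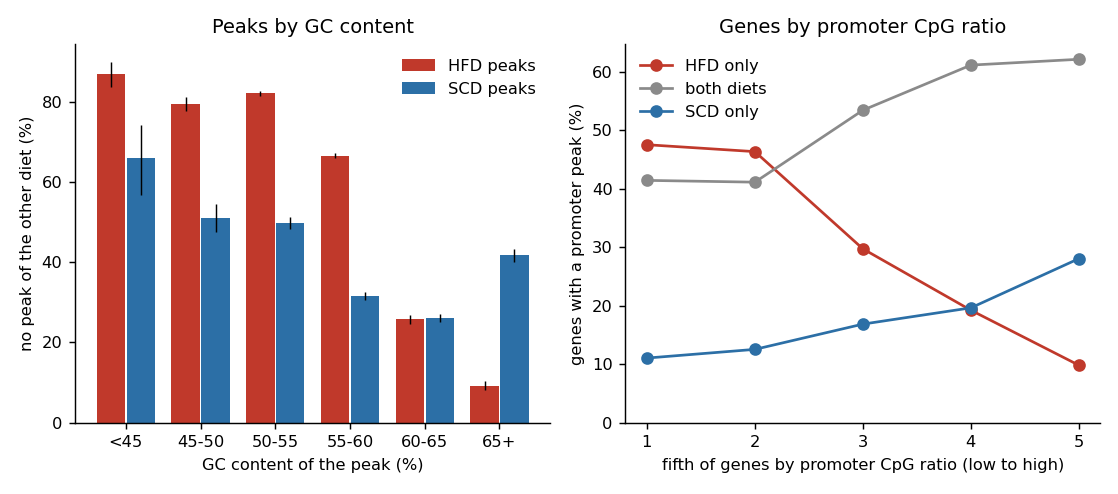
Left, share of HFD and SCD peaks (%) with no overlapping peak of the other diet by GC content of the peak, with 95% exact intervals. Right, genes that had a promoter peak, split into HFD only, both diets and SCD only (%), over 5 equal groups of genes ordered by promoter CpG ratio. HFD only genes made up 47.5% of the CpG-poorest group and 9.84% of the CpG-richest, and SCD only genes 11.1% and 28.05%.

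Position in the genome differed between the classes. A promoter was taken as 3 kb either side of any annotated start site of a protein-coding gene, and a peak was given the first position that applied in the order promoter, 5' UTR, 3' UTR, other exon, intron and intergenic. Of HFD only peaks, 25.7% (25.2 to 26.2) lay at promoters, against 38.8% (37.8 to 39.8) of SCD only peaks, while 42.3% of shared HFD peaks did. Gene bodies showed the reverse. Other exons took 11.8% of HFD only and 3.52% of SCD only peaks, introns 21.6% and 14.0%, and 3' UTRs 5.20% and 1.90%. Intergenic regions took 34.6% of HFD only and 41.5% of SCD only peaks. At equal numbers the promoter share was 27.4% of HFD only and 40.4% of SCD only peaks.

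**Figure D2:**
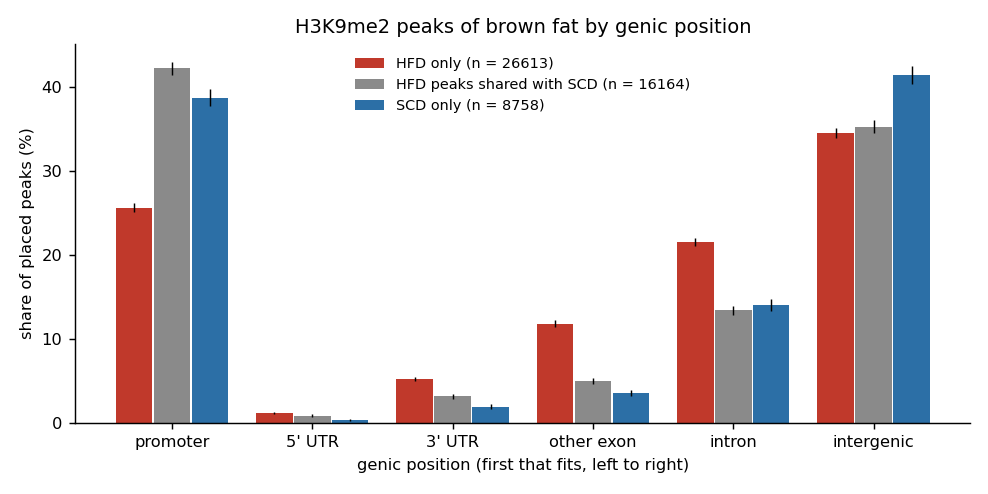
Share of placed peaks (%) by genic position for HFD only peaks (left bars), HFD peaks shared with SCD (middle) and SCD only peaks (right), with 95% exact intervals. HFD only peaks had the lowest promoter share (25.7%) and the highest shares over other exons (11.8%) and introns (21.6%).

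Even the promoter peaks of the diets sat differently. Of promoter peaks, 43.4% (42.2 to 44.6) of HFD only and 83.0% (81.7 to 84.3) of SCD only peaks covered a start site itself, and 46.2% and 83.7% did at equal numbers. The median CpG ratio of promoter peaks was 0.306 in HFD only and 0.762 in SCD only peaks. SCD only promoter peaks therefore lay mostly on CpG-rich start sites, while HFD only ones lay mostly beside start sites in CpG-poor sequence. With 1 outermost start site per gene, HFD only peaks covered 8.15% of genes 200 bp downstream of the start site, 1.67% at 3000 bp upstream and 2.42% at 3000 bp downstream. SCD only peaks covered 11.7% of genes 100 bp downstream, 0.335% at 3000 bp upstream and 0.237% at 3000 bp downstream. Coverage at equal numbers was 0.983% for HFD only and 0.492% for SCD only peaks at 3000 bp upstream, and 1.42% and 0.447% at 3000 bp downstream. At 3000 bp from the start site HFD only coverage was thus the higher in both settings, by less at equal numbers. Nearer to the start site, at 1000 bp downstream, HFD only coverage at equal numbers was the lower, 1.85% against 4.03% for SCD only peaks.

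**Figure D3:**
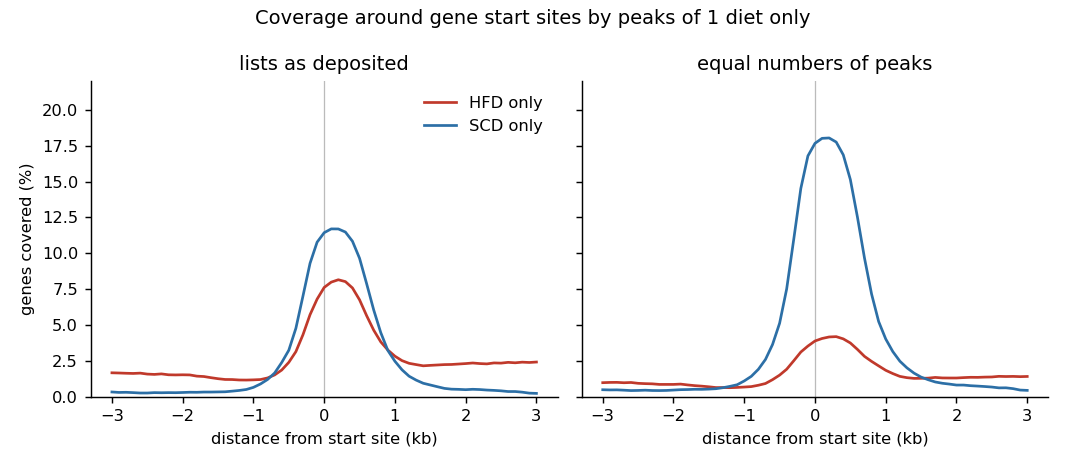
Genes covered (%) by HFD only and SCD only peaks at each distance (kb) from the outermost start site of every protein-coding gene, negative upstream, for the lists as deposited (left) and at equal numbers of peaks (right). At equal numbers the highest coverage was 4.19% of genes for HFD only and 18.03% for SCD only peaks.

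Peaks of 1 diet were narrower and lower-scoring than shared peaks. HFD only peaks had a median width of 890 bp and SCD only peaks 747 bp, while shared peaks measured 1006 bp in HFD and 1103 bp in SCD. At 2 kb or more there were 591 HFD only and 73 SCD only peaks, and at 4 kb or more 49 and 1. At equal numbers there were 582 HFD only and 160 SCD only peaks of 2 kb or more. Median scores were 69.3 in HFD only and 69.7 in SCD only peaks, and 96.3 and 104.5 in shared HFD and SCD peaks. With each list cut into 5 equal parts by score, the share without a partner was 79.7% in the lowest part and 34.8% in the highest for HFD peaks, and 57.6% and 10.8% for SCD peaks. The highest part had 27.7% without a partner in HFD and 19.97% in SCD at equal numbers, a smaller gap. At a score of 500 or more, 42 of 300 HFD peaks (14.0%, 10.3 to 18.4) and 1 of 254 SCD peaks (0.394%, 0.00997 to 2.17) had none.

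Where the diets shared a region, its extent was close. In 15439 pairs of 1 HFD and 1 SCD peak, 97.0% overlapped over at least 50% of both peaks, and the median ratio of widths, HFD over SCD, was 0.965 (quartiles 0.853 and 1.07). The HFD peak was the wider of the pair in 40.5%. Spearman's rho over these pairs was 0.759 for width and 0.374 for score, as a description over regions of the same 2 libraries. Width was thus far better preserved between diets than the order of scores. Peaks of 1 diet were mostly not near misses, since 4.97% of HFD only and 5.11% of SCD only peaks lay within 1 kb of a peak of the other diet, with median gaps of 19555 bp and 25539 bp.

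Repeated sequence was counted as the number of copies in the genome of the 32 bases at the middle of each peak. At least 10 copies were found for 11.8% (11.4 to 12.2) of HFD only and 19.97% (19.1 to 20.8) of SCD only peaks, against 25.2% of shared HFD and 26.01% of shared SCD peaks. The shared regions were hence the richest in repeats and HFD only regions the poorest. Among peaks scoring 300 or more the order was other, with 37.2% of 145 HFD only peaks and 10.7% of 28 SCD only peaks at 10 or more copies. Reads with several placements were removed before peak calling according to the methods, so repeats are seen through their unique parts.

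The strongest HFD only peaks lay outside start sites. At 1892.55 the highest was a 7986 bp peak on chromosome 8 in an intron of Gm20388. Its middle had 46 copies, and it overlapped a peak in all 6 other lists. Next came a 12305 bp intergenic peak on chromosome 4 (score 1635.34) beside Gm13113, whose middle had 211 copies. A 6160 bp peak on chromosome 17 (score 1362.97) over AY036118 followed. The chromosome 8, chromosome 4 and chromosome 17 peaks lay 883 bp, 2235 bp and 4701 bp from the nearest SCD peak, so the SCD list had peaks close beside all 3. The strongest SCD only peak (625.88) also lay in an intron of Gm20388, and its middle had 49 copies. Of the 10 strongest SCD only peaks, 8 lay at promoters, against 1 of the 10 strongest HFD only peaks.

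At promoters the strongest HFD only peak outside the Vmn1r238 pheromone receptor locus was that of Fcgbp (695.24, 50.1% GC), which encodes a mucin-like protein. Those at Dusp5 (572.07, 51.5% GC), a phosphatase of ERK kinases, and at Lrp1 (533.99, 56.5% GC), a lipoprotein receptor, came next with that at Frmd8 (537.93, 56.7% GC). Fcgbp, Dusp5, Frmd8 and Lrp1 also had a separate SCD promoter peak, at 62.58, 275.4, 52.61 and 124.55, so the genes themselves counted as covered in both diets. The carboxypeptidase gene Cpa6 (418.2, 50.95% GC, CpG ratio 0.0222) had none. The Cpa6, Fcgbp, Frmd8 and Lrp1 peaks lay within their genes, and count as promoter peaks through start sites inside them.

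The strongest SCD only promoter peaks were those of Pde3b (401.44), the receptor phosphatase genes Ptprj (382.66) and Ptprt (374), Ss18 (366.94) and Trim8 (362.73). Their GC content was 70.98% at Pde3b, 67.4% at Ptprj, 70.1% at Ptprt, 65.8% at Ss18 and 66.3% at Trim8, and the CpG ratio was between 0.765 and 0.901. All 5 overlapped a peak in both BAT H3K9me3 lists and in both white fat H3K9me2 lists, HFD included. Ptprt also had a separate HFD promoter peak of 83.56. The nearest HFD peak was 88089 bp away at Pde3b and 210066 bp away at Ptprj.

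Autosomes differed in how many HFD peaks had no partner. The ratio of HFD to SCD peaks ran from 1.35 on chromosome 3, 1.40 on chromosome 18 and 1.44 on chromosome 13 up to 2.09 on chromosome 4, 2.15 on chromosome 17 and 2.17 on chromosome 11. The HFD only share was lowest on chromosome 3 (49.5% of 1821 peaks) and highest on chromosome 11 (69.5% of 2807). The SCD only share moved little, between 30.4% on chromosome 8 and 37.7% on chromosome 19. Over the 19 autosomes the HFD only share went with the GC content of the chromosome (Spearman's rho 0.765, Pearson's r 0.832), while the SCD only share did not (rho −0.046, r 0.015). These are descriptions over chromosomes of the same 2 libraries, without a test, and the part of base composition was not tested.

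**Figure D4:**
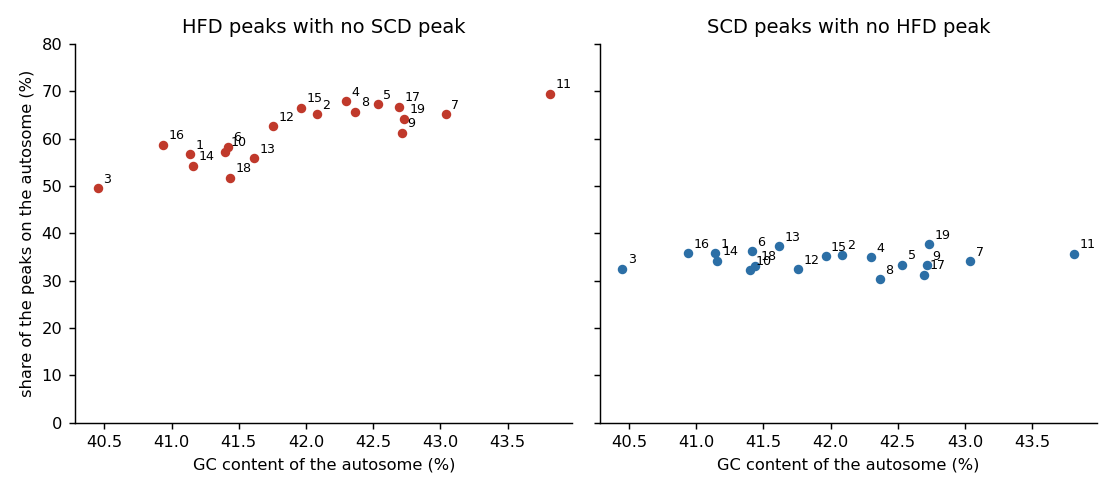
Share of HFD peaks with no SCD peak (left) and of SCD peaks with no HFD peak (right) on each autosome (%), against GC content of the autosome (%); each point is an autosome, labelled by number. The HFD only share spans 49.5% to 69.5%, and the SCD only share 30.4% to 37.7%.

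The X chromosome ran against the autosomes. The HFD list had 365 peaks there (0.845% of the list) and the SCD list 922 (3.70%), and the 6 other lists of the series had between 1.60% and 4.67%, so the HFD list was the low one. Of the X peaks, 28.8% of HFD and 71.9% of SCD peaks had no partner. Among X-linked genes 9 had a promoter peak in HFD only, 203 in SCD only and 10 in both. The sex of the mice is not given in the sources used here. The SCD only calls at Slc6a8, Gyk, Acsl4 and Suv39h1, described with their lists, are X-linked.

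In windows of 1 Mb on the autosomes the excess of HFD only peaks was concentrated. A window held a median of 5 HFD only and 3 SCD only peaks, but up to 117 HFD only and no more than 17 SCD only. The 117 lay in chr4:140000001-141000000, beside 9 SCD only peaks, around the Padi genes for arginine deiminases and Sdhb, a subunit of respiratory complex II. The window chr8:123000001-124000000 held 116 HFD only and 3 SCD only peaks around Cox4i1, Irf8, Foxf1a and Foxc2, the last a forkhead factor of brown fat. The promoter peak of Foxc2 itself was shared, at 151.1 in HFD and 341.25 in SCD. Of 2413 autosomal windows with any peak, 5 had HFD peaks without SCD peaks and 3 the reverse. The autosomes held 42401 HFD and 23626 SCD peaks, so most windows this wide hold several of each list. The count therefore cannot show that the diets mark the same places.

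The same regions were looked up in the 6 other lists, at a score of at least 50 in all. A peak of the HFD H3K9me3 list of BAT overlapped 33.1% (32.6 to 33.7) of HFD only and 54.7% (53.6 to 55.7) of SCD only peaks, and a peak of the SCD H3K9me3 list 11.3% and 61.4%. Both H3K9me3 lists covered 9.86% of HFD only, 49.99% of SCD only and 74.7% of shared HFD peaks, and neither covered 65.4%, 33.9% and 11.2%. The HFD H3K9me2 list of white fat overlapped 6.98% of HFD only and 31.7% of SCD only peaks. In white fat, 82.8% of HFD only and 56.4% of SCD only peaks met no H3K9me2 peak of either diet. The SCD H3K9me3 list of white fat went the other way, overlapping 6.67% of HFD only and 4.12% of SCD only peaks. At equal numbers the HFD H3K9me3 list overlapped 42.6% of HFD only and 62.3% of SCD only peaks. The HFD H3K9me3 list holds 52758 peaks and the SCD one 26835, which bears on all these shares.

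Of 22380 protein-coding genes, 12762 had a promoter peak in either diet. HFD only genes numbered 3079 (24.1%), SCD only genes 2564 (20.1%) and genes with a peak in both diets 7119 (55.8%). At equal numbers these were 1681 (14.8%), 4282 (37.7%) and 5401 (47.5%). Leaving out HFD peaks cannot undo an SCD only call, and 1681 of the 3079 HFD only genes kept theirs. The best peak lay within 1 kb of a start site in 64.0% of HFD only and 91.9% of SCD only genes. Every annotated start site was used, so a promoter peak can lie inside a gene, far from its 5' end.

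The CpG content of a promoter went with its class. Over 500 bp either side of the start site, the median CpG ratio was 0.523 in HFD only, 0.768 in SCD only and 0.732 in genes with a peak in both diets, and 0.253 in genes with no peak. Of 5 equal groups of genes by this ratio, the poorest held 421 HFD only and 98 SCD only genes, and the richest 384 HFD only and 1095 SCD only genes. HFD only genes were most numerous in the middle group (862), and their median was close to the 0.549 of all genes. In the H3K9me3 lists, 43.1% of HFD only genes and 86.4% of SCD only genes had a promoter peak in both diets. An H3K9me3 peak in the same diet alone was found for 28.3% of HFD only and 4.80% of SCD only genes. These rates have unlike baselines, as the HFD H3K9me3 list is the longer one. Among genes without an H3K9me2 peak, H3K9me3 was in HFD alone for 7.65% and in SCD alone for 2.54%. Among genes with one in both diets it was 4.31% and 0.632%.

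Of 35 brown adipocyte and thermogenesis genes 28 had a peak, of which 6 were HFD only (21.4%), 3 SCD only (10.7%) and 19 both (67.9%), and 7 had none. Over all genes with a peak these shares were 24.1%, 20.1% and 55.8%. Ucp1 had low peaks in both diets, 54.62 in HFD and 57.75 in SCD. Its HFD peak was among those left out at equal numbers. Adrb3, the beta-3 adrenergic receptor that drives thermogenesis, had 182 in HFD and 181.51 in SCD, and Prdm16 had 118.39 in HFD and 90 in SCD. Ppargc1a, the coactivator of mitochondrial biogenesis, and Dio2, the deiodinase that activates thyroid hormone, had none.

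HFD only members were Sirt3 (78.14), a mitochondrial deacetylase, Irf4 (73.22), a transcription factor of thermogenesis and lipolysis, Fgf21 (72.75), a metabolic hormone, Ebf2 (57.78), a factor that marks brown precursors, Fam176a (52.31) and Cidea (50.39), a lipid droplet protein. All 6 scores were below 80, and 3 of the 6 stayed at equal numbers. SCD only members were Nrg4 (209.18), a growth factor secreted by brown fat, Slc6a8 (145.78), the creatine transporter, and Gyk (125.27), glycerol kinase. Slc6a8 and Gyk lie on the X chromosome. The Nrg4 and Slc6a8 peaks sat 22 bp and 2 bp from a start site and both overlapped promoters with H3K9me3 peaks in both diets.

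In lipolysis and beta-adrenergic signalling, 5 genes were HFD only, 5 SCD only and 17 both, of 27 with a peak. The HFD only and SCD only shares were each 18.5%, against 24.1% and 20.1% over all genes. The HFD only genes were Plin4 (294.99), Adrb1 (186.29), Adcy3 (138.53), an adenylate cyclase, Atf2 (121.71), a transcription factor downstream of p38, and G0s2 (81.38), an inhibitor of the lipase ATGL. The SCD only genes were Pde3b (401.44), Creb1 (158.38), the cAMP-responsive factor, Abhd5 (135.28), the coactivator of ATGL, and the protein kinase A subunits Prkar2a (105.96) and Prkar1a (61.12). The middle of the Plin4 peak lay 4084 bp downstream of the start site, while the Pde3b peak was centred 347 bp downstream. The strongest Adcy3 peak lay well inside the gene and counts through a start site there. The 2 groups held genes that raise and genes that lower lipolysis alike.

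Fatty acid oxidation was the metabolic list with the highest SCD only share. Of 17 genes with a peak 4 were HFD only, 7 SCD only and 6 both, and at equal numbers none was HFD only, 11 were SCD only and 2 both. The SCD only genes were Acsl4 (91.76), Acaa2 (90.61), Echs1 (76.26), Acads (68.18), Acot2 (63.49), Hadha (59.81) and Etfdh (54.39), among them enzymes of the beta-oxidation spiral. HFD only peaks at Etfb (61.15), a subunit of the electron transfer flavoprotein, Eci2 (60.35) and Acaa1a (51.46) lay below the equal-number limit. Those of Etfb and Eci2 lay inside their genes and count through start sites there. Cpt1a, the carnitine palmitoyltransferase of the outer mitochondrial membrane, had 61.66 in HFD and 80.11 in SCD. Against the background at equal numbers, 37.7% SCD only, the list stood at 84.6%, over 13 genes. The median HFD score of the list, 61.22, lay below the equal-number limit of 70.62, while SCD peaks were kept down to 50. The limit thus removed most of its HFD calls.

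In fatty acid and triglyceride synthesis, 7 genes were HFD only (28%), 3 SCD only (12%) and 15 both, against 24.1% HFD only and 20.1% SCD only over all genes. The HFD only peaks included Dgat1 (161.31), Lpin3 (124.21), Mlxipl (94.02), which encodes the glucose-responsive factor ChREBP, and its partner Mlx (88.22). The Lpin3 peak, near the 3' end, and the strongest Mlxipl peak lay inside their genes and count through start sites there. SCD only were Acaca (243.64), Me1 (237.5), the malic enzyme that supplies NADPH, and Lpin1 (58.07). Fasn, fatty acid synthase, had peaks of 241.7 in HFD and 221.48 in SCD, with its strongest HFD peak centred at −2426 bp from a start site inside the gene and its SCD peak 25 bp downstream of one.

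Insulin signalling and glucose uptake held 4 HFD only (12.9%), 6 SCD only (19.4%) and 21 genes of both, against 24.1% HFD only and 20.1% SCD only over all genes. Akt1 (228.32), a kinase of the insulin pathway, was the strong HFD only member. Rptor (68.89), Tsc1 (59.75) and Ptpn1 (55.3) were weak ones that dropped out at equal numbers. The strongest Akt1 peak, near the 3' end, and the strongest Rptor peak lay far inside their genes and count through start sites there. SCD only were Slc2a1 (233.5), Rheb (136.42), the activator of mTORC1, the PI3-kinase subunits Pik3ca (121.24) and Pik3cb (97.15), and the glycogen synthase kinases Gsk3a (89.87) and Gsk3b (88.65). Among genes of both diets, Irs2 had 548.02 in HFD and 385.79 in SCD, and Irs1 188.26 in HFD and 354.26 in SCD. At equal numbers 1 of 28 genes was HFD only and 11 SCD only (39.3%), close to the 37.7% SCD only over all genes.

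MAPK signalling, the kinase cascades behind growth and stress responses, had 14 HFD only (16.7%), 18 SCD only (21.4%) and 52 genes of both, of 84 with a peak. Over all genes the shares were 24.1% HFD only and 20.1% SCD only. At equal numbers the list had 11.4% HFD only and 39.2% SCD only, against 14.8% and 37.7% over all genes. Map3k14 (179.48), the kinase NIK, Max (179.98), the partner of Myc, and Map2k2 (141.23) were HFD only. The strongest Map3k14 peak, over the 3' end, and the strongest Map2k2 peak count through start sites inside the genes. Mapk8 (259.62), which encodes JNK1, Rap1b (182.72) and Rap1a (129.46) were SCD only, as was the calcineurin subunit gene Ppp3cc (88.17). The receptor gene Met was HFD only (88.03), Map3k5 had 143.57 in HFD and 191.62 in SCD, and Vegfa had 61.54 in HFD and 66.31 in SCD, in separate peaks 4468 bp apart, with the HFD one left out at equal numbers. Dusp2 had 70.82 in HFD and 165.2 in SCD, and Hspa1a 229.35 in HFD and 287.64 in SCD. In the inflammation list 7 genes were HFD only (25.9%), 5 SCD only (18.5%) and 15 both, near the shares over all genes.

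Marker lists of macrophages, endothelium and skeletal muscle had a larger HFD only share than the background of 24.1%, over few genes. Of 7 macrophage markers with a peak 5 were HFD only, 1 SCD only and 1 both, of 12 endothelial markers 5, 2 and 5, and of 11 skeletal muscle markers 5, 1 and 5. Csf1r (186.81), the receptor for macrophage colony-stimulating factor, Cx3cr1 (101.96), Sfpi1 (81), the factor PU.1, Trem2 (69.3) and Cd14 (55.04) were the HFD only macrophage genes. Cldn5 (132.44), Tie1 (113.06), Eng (98.94) and Cdh5 (83.63) were among the HFD only endothelial ones. The strongest Sfpi1 and Eng peaks lay well inside their genes. Mertk (52.28), Kdr (78.56) and Robo4 (53.21) were SCD only, and Cd163, Erg and Sox18 had peaks in both diets. No peak in either diet was found for 13 of 20 macrophage, 4 of 16 endothelial and 9 of 20 skeletal muscle markers. At equal numbers the HFD only genes were 3 of 5 macrophage, 5 of 12 endothelial and 4 of 10 muscle markers, against a background of 14.8%. White adipocyte markers stood at 2 HFD only, 2 SCD only and 12 of both. The median promoter CpG ratio was 0.182 for macrophage, 0.363 for endothelial, 0.362 for muscle and 0.585 for white adipocyte markers, against 0.549 for all genes, and its part in these counts was not tested. In bulk tissue a change in the number of cells of a type and a change within its cells cannot be told apart.

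Enzymes and readers of H3K9 methylation had 3 HFD only, 8 SCD only and 17 genes of both. HFD only were the demethylase genes Kdm4a (125.65) and Kdm4c (122.17) and the Setdb1 cofactor Atf7ip (72.41). The strongest Kdm4a peak and the Kdm4c peak lay inside their genes and count through start sites there. SCD only were the methyltransferase genes Prdm2 (137.13), Setdb1 (93.39) and Suv39h1 (90.31), the demethylase genes Kdm3b (114.9), Kdm1a (75.91) and Phf2 (69.66), Dnmt3b (83.03) and Cbx3 (80.27), which encodes HP1 gamma. Ehmt2 had 294.92 in HFD and 294.44 in SCD at its strongest peaks, which were separate regions, and Ehmt1 had overlapping peaks of 56.8 in HFD and 173.97 in SCD, of which the HFD one was left out at equal numbers. The shares were 10.7% HFD only and 28.6% SCD only, against 24.1% and 20.1% over all genes. At equal numbers 3 of 28 genes were HFD only and 14 SCD only, against 14.8% and 37.7% over all genes. The 3 HFD only members held 2 demethylases and no methyltransferase, and the SCD only members both kinds of enzyme. Over so few genes this shows no split by kind of enzyme. The list's median promoter CpG ratio was 0.850, against 0.549 for all genes, and its part was not tested.

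Some gene families lay far from the background of 24.1% HFD only, 20.1% SCD only and 55.8% both. Of 31 keratin genes with a peak 23 were HFD only (74.2%), 2 SCD only and 6 both, led by Krt81 (181.39), Krt86 (155.78) and Krt5 (121.29). Of 93 olfactory receptor genes 55 were HFD only (59.1%), 13 SCD only and 25 both, out of 1087 in all. At equal numbers 11 of 19 keratin (57.9%) and 26 of 64 olfactory receptor genes (40.6%) were HFD only, against 14.8% over all genes. Replication-dependent histone genes were the reverse, with 1 HFD only, 22 SCD only (41.5%) and 30 of both. However, 1 SCD peak of 655 bp (201.59) on chromosome 13 served Hist1h2ak, Hist1h2bn and Hist1h4k at once. Hox genes had 5 HFD only (16.1%), 11 SCD only (35.5%) and 15 of both. Clustered protocadherins (1 HFD only, none SCD only, 23 both) and forkhead factors (3, 2 and 32) mostly had peaks in both diets, with 95.8% and 86.5%. Genes named Zfp had 39 HFD only (22.2%), 51 SCD only (29.0%) and 86 of both. Their SCD only share was above the background, also at equal numbers (49.0% against 37.7%). Collagens had 9 HFD only (32.1%), 2 SCD only (7.14%) and 17 of both, with 2 HFD only at equal numbers.

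Promoter composition differed between these families. The median promoter CpG ratio was 0.310 for keratins and 0.135 for olfactory receptors, the 2 families richest in HFD only genes, and 0.879 for histone genes, the list with the smallest HFD only share, 1.89%. Other lists departed from this order. Cytoplasmic ribosomal protein genes had a ratio of 0.805 with 37.5% HFD only, and clustered protocadherins 0.417 with 4.17%. Neighbouring members of a family can share a peak and near-identical copies share reads, so members are not independent. The counts are descriptions beside the background, and no list was tested.

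**Figure D5:**
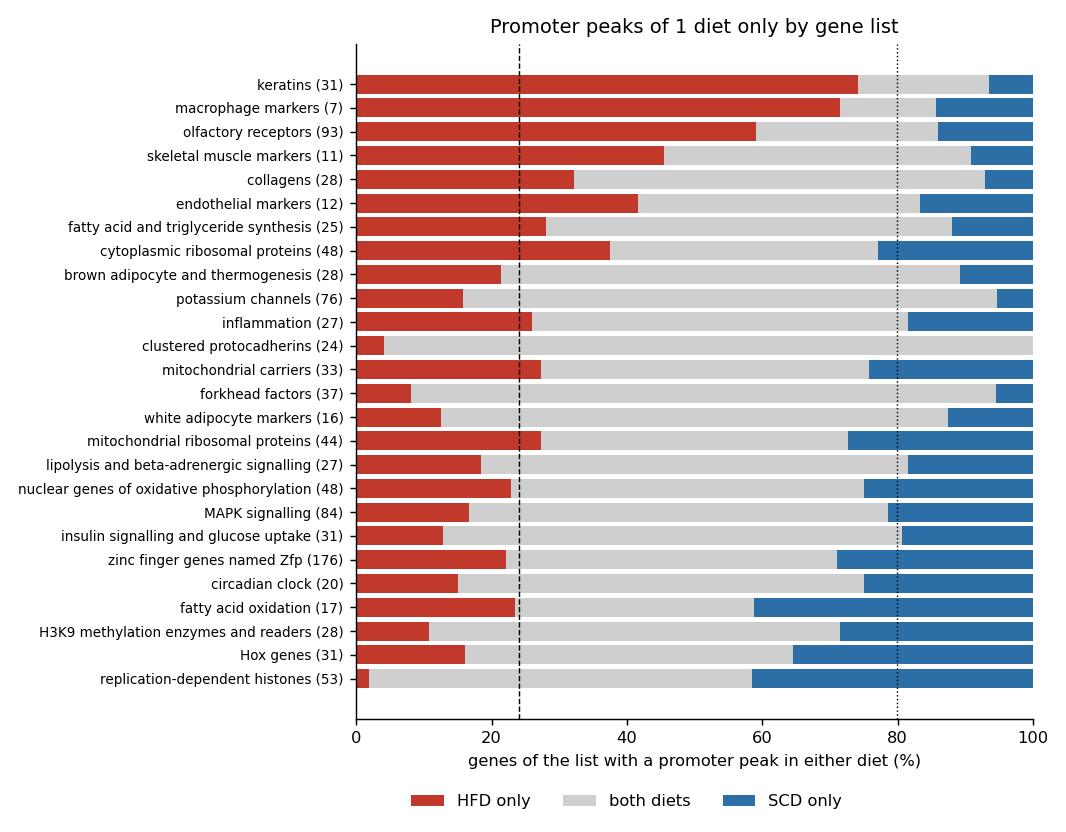
Genes of each list that had a promoter peak (number in parentheses), split into HFD only (left), both diets (middle) and SCD only (right), in %. The dashed line marks 24.1% HFD only and the dotted line leaves 20.1% SCD only at its right, the shares over all genes. Keratins, macrophage markers and olfactory receptors lie at the top and histone genes at the bottom.

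Genes of the oxidative machinery lay near the background of 24.1% HFD only in the lists as deposited, and above its 20.1% SCD only. Nuclear genes of oxidative phosphorylation had 11 HFD only (22.9%), 12 SCD only (25%) and 25 of both. Mitochondrial ribosomal protein genes had 12 HFD only (27.3%), 12 SCD only (27.3%) and 20 of both. Mitochondrial carriers had 9 HFD only (27.3%), 8 SCD only (24.2%) and 16 of both. The SCD only share at equal numbers was 45.2% for oxidative phosphorylation, 56.4% for mitochondrial ribosomal proteins and 43.3% for carriers, against 37.7% over all genes. Cytoplasmic ribosomal protein genes stood higher in HFD only, with 18 (37.5%), against 11 SCD only and 19 of both, and their processed copies elsewhere in the genome can share reads. SCD only examples were Ndufab1 (166.27, 721 bp wide), a complex I subunit, and Cox7c (161.19, 657 bp wide), a complex IV subunit. HFD only were Atp5f1 (91.01) and Cox5b (87.24), subunits of ATP synthase and complex IV. Circadian clock genes had 3 HFD only (15%), 5 SCD only (25%) and 12 of both, against 24.1% HFD only and 20.1% SCD only over all genes. Nr1d1, which encodes REV-ERB alpha, was HFD only (60.18) and Nr1d2 was in both, at 148.35 in HFD and 327.47 in SCD. The Nr1d1 peak lay past the 3' end of the gene and counts through a start site inside it.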

How the data were processed

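The compared data are the 2 H3K9me2 peak lists of BAT. According to the submitters' processing notes and the methods, the authors used FastQC for quality checks and Trim Galore for adaptors, placed reads on the mm9 assembly by Bowtie2 (version 2.4.2) without those mapping to several places, and called peaks by MACS2; whether the input libraries served as its control is not given in the sources used here. The score column was deposited as it was used here, the peak caller's value per region with a minimum of 50 in both lists. Its scale was inferred from that minimum. Read depth is not given in the sources used here, and the 4 input libraries were not analysed here.

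Peaks were intersected at 1 bp and placed on GENCODE vM1 (22380 protein-coding genes, 70064 start sites). Shares have 95% Clopper-Pearson intervals. Python 3.11.15, NumPy 2.4.6, SciPy 1.17.1, pandas 2.3.3 and matplotlib 3.10.9 were used, and the code was tested on simulated peaks. No test between diets was possible.

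The members, the 26 gene lists and the comparisons were chosen with earlier results of these data known. The rule for named genes took the 10 strongest promoter peaks of each diet alone on autosomes, up to 4 genes per list in each diet alone and up to 2 in both, the MAPK genes set apart in the publication and the genes of the richest 1 Mb windows. Other list members, such as Ucp1, Adrb3, Prdm16, Fasn, Irs1, Irs2, Ehmt1 and Ehmt2, were added after their values had been seen. Alternatives were a score of 80, equal numbers, merging within 1 kb, overlap of 50%, autosomes alone, removal of regions in all 8 lists, a 1 kb promoter and 1 start site per gene.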

Additional observations from a re-analysis of the deposited data

How the results depend on the processing

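No paired analysis was possible because each diet has 1 library, and for the same reason no replicate could be left out. The HFD only share of peaks was 62.2% and became 61.1% at a score of 80, 51.5% at equal numbers, 60.3% after merging within 1 kb, 64.7% at 50% overlap and 66.8% without regions in all 8 lists. The SCD only share was 35.9% and became 45.6% at a score of 80, 52.1% at equal numbers, 38.7% at 50% overlap, 34.2% on autosomes alone and 40.6% without regions in all 8 lists. The promoter share of HFD only peaks was 25.7% and became 30.8% at a score of 80, 27.4% at equal numbers, 24.3% after merging, 27.3% at 50% overlap, 16.9% with a 1 kb promoter and 14.0% with 1 start site per gene. For SCD only peaks it was 38.8% and became 51.98% at a score of 80, 40.4% at equal numbers, 41.0% at 50% overlap, 35.6% with a 1 kb promoter and 33.8% with 1 start site. It stayed above that of HFD only peaks under all these settings. Genes with a promoter peak numbered 1681 in HFD only and 4282 in SCD only at equal numbers, against 3079 and 2564 as deposited, so the order of these counts depended on list length. It also turned at a score of 80 (2407 and 2974) and, narrowly, with a 1 kb promoter (2699 and 2713). Of 251 named genes, 196 kept their call at a score of 80, 234 at equal numbers, 210 with a 1 kb promoter and 212 with 1 start site. Without read depth, a missing peak cannot be told apart from one below the minimum score.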
